A study of Mus musculus with 6 samples.

Results

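The 6 liver RNA-seq libraries fell into 2 sets by the form of the library name, and the comparison below took the vector into account. The long-named set held 3 libraries with 4-digit names (1211, 1212 and 1213), and the short-named set held the other 3 (025, 036 and 035). These 6 libraries were all of the 6 in the series. The labels gave no meaning to the name form. The livers came from Mettl14f/f male mice that began a high-fat diet (HFD) at 8 weeks of age and, after 10 weeks of it, received AAV8-TBG-Cre or AAV8-TBG-GFP through the tail vein. Livers were collected 8 weeks after injection, so floxed alleles, HFD and an AAV8 vector were shared by the 6 mice. AAV8-TBG-Cre deletes Mettl14, a subunit of the writer of N6-methyladenosine on RNA, and its TBG promoter restricts Cre to hepatocytes, so that other liver cells keep the gene. The short names belonged to replicates 1 and 2 of AAV8-TBG-GFP and replicate 1 of AAV8-TBG-Cre, and the long names to replicate 3 of AAV8-TBG-GFP and replicates 2 and 3 of AAV8-TBG-Cre. Within AAV8-TBG-GFP, the difference with name form therefore rested on 1 long-named library, and within AAV8-TBG-Cre on 1 short-named library.

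Liver gene expression follows the metabolic state of the animal. In textbook terms, SREBP1c, encoded by Srebf1, drives the synthesis of fatty acids, and PPAR alpha drives their oxidation. The circadian clock, a loop of activators and repressors, sets the daily rhythm of many enzymes of both pathways. Chaperones of the endoplasmic reticulum (ER) and of the cytosol are induced when unfolded proteins accumulate.

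The libraries held between 20356392 and 21010474 counts and between 16120 and 16973 detected genes. The share of the 10 most abundant genes lay between 15.8% and 17.7%, and TMM factors, which scale the libraries, lay between 0.918 and 1.177. For 6 library values, these 4 together with the share of Mup genes and the mean transcript length per fragment, an exact two-sided permutation of the name form within vector gave p between 0.222 and 1, where the smallest p that 9 arrangements allow is 0.111. In TMM-normalized CPM, which are counts scaled to library size, hepatocyte markers summed to between 110200 and 148700, with overlapping ranges for the 2 name forms. Mettl14 was at 6.31, 6.49 and 5.78 CPM in AAV8-TBG-GFP replicates 1 to 3 and at 4.94, 5.39 and 4.85 CPM in AAV8-TBG-Cre replicates 1 to 3. The vector difference in Mettl14 was small and not called (-0.27 on the log2 scale, edgeR adjusted p = 0.407), although the 2 vectors did not overlap. Between name forms its levels overlapped, with a log2 difference of -0.05 ± 0.17 (SE). The first principal component, with 53.4% of the variance of log2 CPM, separated the vectors, and the second, with 18.3%, separated the name forms.

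Of 13812 genes tested with edgeR, 191 differed with name form at an adjusted p under 0.05, which is 1.38% of them. In the long-named libraries 100 genes were higher (0.724%) and 91 were lower (0.659%). For comparison, the vector coefficient of the same fit gave 205 genes (1.48%), and 19 genes were called for both. A looser rule (at least 1.2-fold, with an unadjusted p under 0.05) took in 1075 genes with a positive difference (7.78%) and 1082 with a negative one (7.83%). The libraries of the 2 name forms did not overlap in 2945 of the genes tested (21.3%) and in 176 of the 191 called genes. The size of the called differences ran from 0.484 to 3.8 on the log2 scale, with a median of 0.958, and 81 were at least 2-fold. The median over all genes tested was 0.0098. The number of calls depended on single libraries. It fell to 4 without AAV8-TBG-GFP replicate 2, to 10 without AAV8-TBG-Cre replicate 1, to 46 without AAV8-TBG-GFP replicate 3 and to between 65 and 70 without each of the other 3. Of the 191 genes, 94 stayed called in 0 of these 6 fits, 40 in 1 and 3 in all 6. In these 6 fits the 191 genes kept their sign, and each had an unadjusted p under 0.05. As the genes were picked on all 6 libraries and each fit reused the remaining ones, this is a description and not a separate test. With the replicate block, which leaves 1 residual degree of freedom, 1 gene was called, and it was none of the 191.

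In what follows, values are TMM-normalized CPM. In both sets the AAV8-TBG-GFP libraries are given first and the AAV8-TBG-Cre libraries last, in the order of their replicate numbers. Log2 differences are long-named minus short-named, adjusted for vector, with their SE, and adjusted p-values are those of edgeR's quasi-likelihood test over all genes tested.

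Among the called genes, the largest decrease was in Scara5, a scavenger receptor that takes up ferritin (NCBI gene 71145, GRCm38.p6 chromosome 14, 65666403 to 65764826). Scara5 was at 22.3, 27.4 and 56.2 CPM in the short-named libraries and at 2.24, 3.82 and 3.17 CPM in the long-named ones. The lowest short-named library was thus several times above the highest long-named one, and the log2 difference was -3.80 ± 0.17 (adjusted p = 0.000808). Thrsp, which encodes a regulator of lipogenesis (gene 21835, chromosome 7, 97412933 to 97417550), was at 520, 600 and 452 CPM in the short-named libraries and at 98.0, 22.5 and 28 CPM in the long-named ones. The groups did not overlap, and Thrsp fell by 3.34 ± 0.35 on the log2 scale (adjusted p = 0.0191). Lpin1, a phosphatidate phosphatase and transcriptional coactivator, was at 612, 440 and 614 CPM and at 154, 108 and 114 CPM, respectively (log2 difference -2.12 ± 0.20, adjusted p = 0.0191). Upp2, the liver uridine phosphorylase, was at 492, 672 and 917 CPM in the short-named libraries and at 171, 137 and 187 CPM in the long-named ones (-2.13 ± 0.23, adjusted p = 0.0191). Slc2a4, which encodes the insulin-responsive glucose transporter GLUT4, was low throughout, at 1.22, 2.06 and 7.18 CPM against 0.364, 0.534 and 0.720 CPM. In the short-named set AAV8-TBG-Cre replicate 1 was the highest library for both Scara5 and Slc2a4.

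The other decreases among the largest 10 were in Dusp14, a dual-specificity phosphatase (-2.24), Map2k6, a kinase that activates p38 (-2.11), Hcn3, a cation channel (-2.0), Fbf1, a centriolar protein of cilia (-1.99), and Spry4, an inhibitor of receptor tyrosine kinase signalling (-1.74). The annotated span of Hcn3 (chromosome 3, 89146775 to 89160284) overlaps the end of that of Pklr, given below (89136122 to 89146815). Hcn3 was at 13.2, 22.5 and 12.8 CPM against 4.11, 2.96 and 3.93 CPM. Pklr, which was far more abundant, ranked the 6 libraries in the same order. Whether reads of Pklr entered the count of Hcn3 was not tested. Spry4 was at 27.7, 37.2 and 29.1 CPM in the short-named libraries and at 11.2, 8.55 and 6.43 CPM in the long-named ones. Flt4, the receptor of lymphatic and sinusoidal endothelium for VEGF-C, was at 37.7, 34.6 and 51.2 CPM against 18.1, 24.3 and 20.2 CPM (-1.10 ± 0.11, adjusted p = 0.0191). Aacs, which activates acetoacetate for lipid synthesis, was at 115, 120 and 87.9 CPM against 29.6, 33.1 and 36.2 CPM (-1.66 ± 0.16, adjusted p = 0.0191).

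The largest increases among the called genes were in Cyp4a31 and Gm15441. Cyp4a31 belongs to the fatty acid omega-hydroxylases (gene 666168, chromosome 4, 115563627 to 115579015). It was at 10.1, 6.08 and 7.13 CPM in the short-named libraries and at 43.8, 103 and 158 CPM in the long-named ones, which is a log2 difference of 3.29 ± 0.44 (adjusted p = 0.0281). Gm15441 is a long noncoding RNA (gene 100038464, chromosome 3, 96555768 to 96566801) whose annotated span holds Txnip, which encodes a thioredoxin-interacting protein (96557957 to 96561857). It was at 1.02, 1.80 and 1.09 CPM in the short-named libraries and at 14.1, 9.62 and 11.2 CPM in the long-named ones (3.28 ± 0.24, adjusted p = 0.0131). Txnip was at 203, 330 and 113 CPM against 99.2, 135 and 86.7 CPM, with overlapping groups and no call (-0.73 ± 0.38, adjusted p = 0.402). The sources used here do not state whether counting used strand, and without it reads from the 2 genes cannot be told apart where they overlap.

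Phospho1, Chka, Slc16a1 and Crip2 followed Gm15441 in the order of p-values among the increases. Phospho1, a phosphatase of phosphocholine and phosphoethanolamine (gene 237928, chromosome 11, 95824500 to 95832140), was at 19.0, 14.0 and 8.22 CPM in the short-named libraries and at 85.0, 29.6 and 28.4 CPM in the long-named ones (2.12 ± 0.17, adjusted p = 0.0131). Chka, choline kinase alpha, was at 13.4, 11.9 and 17.3 CPM against 31.0, 50.9 and 56.7 CPM (1.46 ± 0.12, adjusted p = 0.0131). Slc16a1, the monocarboxylate transporter MCT1, was at 36.6, 32.5 and 33.3 CPM against 78.4, 70.3 and 76.1 CPM, with little spread inside either set (1.16 ± 0.10, adjusted p = 0.0131). Crip2, a LIM domain protein, rose by 0.97 ± 0.09. Further large increases were in Tuba8, an alpha tubulin (2.17), Snx22, a sorting nexin (1.95), Spon2, a secreted matrix protein (1.82), Rab11fip4, an effector of Rab11 (1.68), and Ccn1, a matricellular protein (1.52). Scara5, Gm15441 and Phospho1 were the 3 of the 191 genes that stayed called in each of the 6 fits that left out a library.

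**Figure D1:**
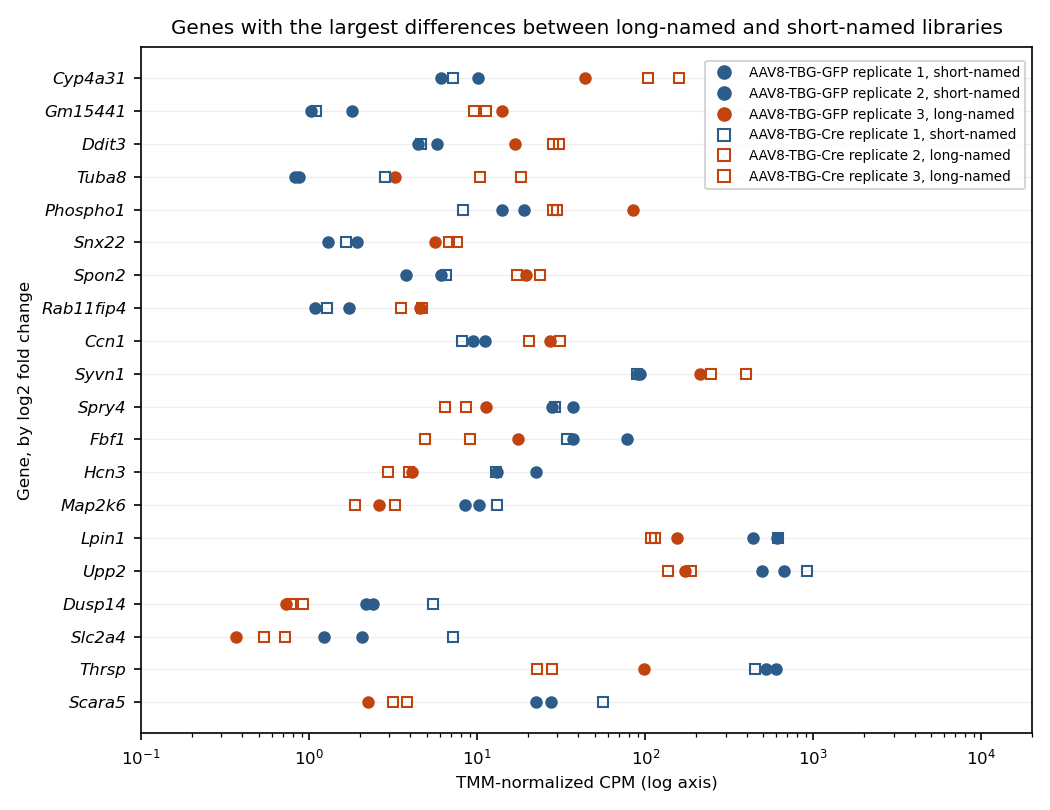
TMM-normalized CPM (log axis) in each of the 6 libraries for called genes without overlap, the top 10 by increase and the top 10 by decrease, with color for the name form (blue short-named, orange long-named) and shape for the vector (filled circles AAV8-TBG-GFP, open squares AAV8-TBG-Cre). The orange and blue symbols are apart in every row, from Scara5 (log2 difference -3.80) to Cyp4a31 (3.29).

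The difference was also read inside each vector. The 191 called genes had the same sign within AAV8-TBG-GFP and within AAV8-TBG-Cre, compared with 61.9% of all genes tested. As both ratios entered the fit that called the genes, this is a description and not a separate test. The interaction of name form and vector, tested with 2 residual degrees of freedom over 14340 genes, passed an adjusted p under 0.05 in 1 gene, Saa2, and an unadjusted p under 0.05 in 817. Of the 191 called genes, 15 had an unadjusted interaction p under 0.05. Among them, Ddit3 differed by 1.72 within AAV8-TBG-GFP and by 2.65 within AAV8-TBG-Cre, and Thrsp by -2.51 and -4.17.

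**Figure D2:**
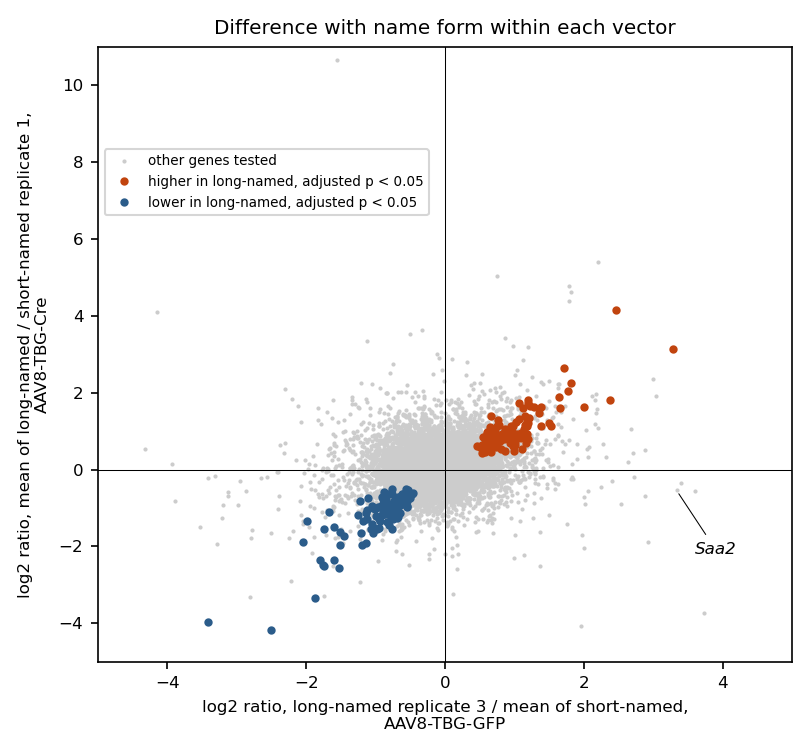
Log2 ratio of long-named to short-named libraries within AAV8-TBG-GFP (horizontal axis) and within AAV8-TBG-Cre (vertical axis) for the 13812 genes tested, with called genes in orange (100 higher) and blue (91 lower). The called genes lie in the upper right and lower left quadrants, whereas Saa2 lies at 3.34 and -0.54.

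Enzymes of fatty acid synthesis were among the genes that were lower in the long-named libraries. Of 16 listed genes of lipogenesis, 6 fell and none rose at an adjusted p under 0.05, and the median log2 difference was -0.75. By the unadjusted rule 10 were lower and 1 was higher. Over all genes tested, 0.659% were called lower, and the unadjusted rule gave 7.83% lower and 7.78% higher. Srebf1, the transcription factor that drives these enzymes, was at 348, 280 and 366 CPM in the short-named libraries and at 136, 91.4 and 95.0 CPM in the long-named ones (-1.59 ± 0.19, adjusted p = 0.0195). Acaca, the cytosolic acetyl-CoA carboxylase, was at 156, 133 and 150 CPM against 69.8, 76.4 and 77.7 CPM (-1.01 ± 0.11, adjusted p = 0.0191). Acacb, the mitochondrial isozyme, whose malonyl-CoA restrains fatty acid oxidation, was at 147, 102 and 69.8 CPM against 42.7, 18 and 28 CPM (-1.57 ± 0.21, adjusted p = 0.0268). Neither carboxylase overlapped between the name forms. Fatty acid synthase, Fasn, was at 643, 411 and 476 CPM against 216, 185 and 238 CPM (-1.23 ± 0.21, adjusted p = 0.0452). The enzymes that supply acetyl-CoA, Acly and Acss2, fell by 0.96 and 0.84 on the log2 scale. Fasn and Acss2 stayed called in 0 of the 6 fits that left out a library. Across the alternatives, the median of the list stayed between -0.84 and -0.70.

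Genes of feeding and glycolysis and of cholesterol synthesis held fewer calls, beside 0.659% of all genes tested called lower. Of 11 listed genes of feeding and glycolysis, 2 fell (Thrsp and Pklr), none rose, and the median was -0.41 (-0.83 with the replicate block). Pklr, the liver pyruvate kinase, was at 375, 453 and 345 CPM in the short-named libraries and at 150, 87.1 and 124 CPM in the long-named ones (-1.59 ± 0.17, adjusted p = 0.0191). Khk, ketohexokinase, did not pass (-0.82 ± 0.17, adjusted p = 0.0711). Of 23 genes of cholesterol synthesis, Nsdhl, a sterol dehydrogenase, fell (-1.08 ± 0.13, adjusted p = 0.0194). Dhcr7 (-0.73, adjusted p = 0.0558) and Fdps (-1.09, adjusted p = 0.0898) did not pass, and the median was -0.24 (0.23 with the replicate block). Insig2, which retains SREBP in the ER, was higher in the long-named libraries, at 120, 121 and 66.4 CPM against 184, 125 and 137 CPM. Among 18 genes of fasting and gluconeogenesis, Lpin1 was the 1 called gene. G6pc, the catalytic subunit of glucose-6-phosphatase, was at 320, 343 and 190 CPM in the short-named libraries and at 171, 48.3 and 27.0 CPM in the long-named ones, a difference that did not pass (-1.64 ± 0.33, adjusted p = 0.0685). In AAV8-TBG-Cre the short-named library was at 190 CPM and the long-named ones at 48.3 and 27.0 CPM. Fgf21, a hepatokine induced by PPAR alpha, did not pass either (1.72 ± 0.43, adjusted p = 0.111).

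Some genes of fatty acid oxidation were higher in the long-named libraries. Of 20 listed PPAR alpha targets, 3 rose at an adjusted p under 0.05 (Cyp4a31, given above, Acot2 and Vnn1) and none fell. By the unadjusted rule 15 were higher and none was lower, and the median was 0.62. The shares over all genes tested were 0.724% called higher and 7.78% higher by the unadjusted rule. Acot2, a mitochondrial acyl-CoA thioesterase, was at 19.4, 16.9 and 12.2 CPM in the short-named libraries and at 38.2, 49.3 and 33.6 CPM in the long-named ones (1.41 ± 0.21, adjusted p = 0.0360). Acot2 and its near-identical neighbour Acot1 share reads, so their split is uncertain. Vnn1, a pantetheinase, also rose (0.88 ± 0.15, adjusted p = 0.0452), although its libraries overlapped, at 182, 196 and 68.3 CPM against 334, 111 and 152 CPM, since AAV8-TBG-Cre livers were lower in both sets. Slc25a20, the carnitine carrier of mitochondria, was at 139, 150 and 116 CPM against 207, 156 and 157 CPM and did not pass (adjusted p = 0.0750). Cyp4a10 (3.09, adjusted p = 0.0844), Cyp4a14 (3.75, adjusted p = 0.106) and Cyp4a32 (1.13, adjusted p = 0.0797), close relatives of Cyp4a31, did not pass, and their reads can be split among the 4 genes in more than 1 way. Crot and Crat, carnitine acyltransferases of peroxisomes and mitochondria that were not on the list, both rose. Crot was at 445, 444 and 385 CPM against 1133, 909 and 1277 CPM (1.43 ± 0.18, adjusted p = 0.0218), and Crat was at 90.2, 67.5 and 39.2 CPM against 174, 109 and 96.4 CPM (1.27 ± 0.15, adjusted p = 0.0194). Gpd1, the cytosolic glycerol-3-phosphate dehydrogenase, rose from 521, 429 and 265 CPM to 992, 604 and 721 CPM (1.19 ± 0.16, adjusted p = 0.0287).

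**Figure D3:**
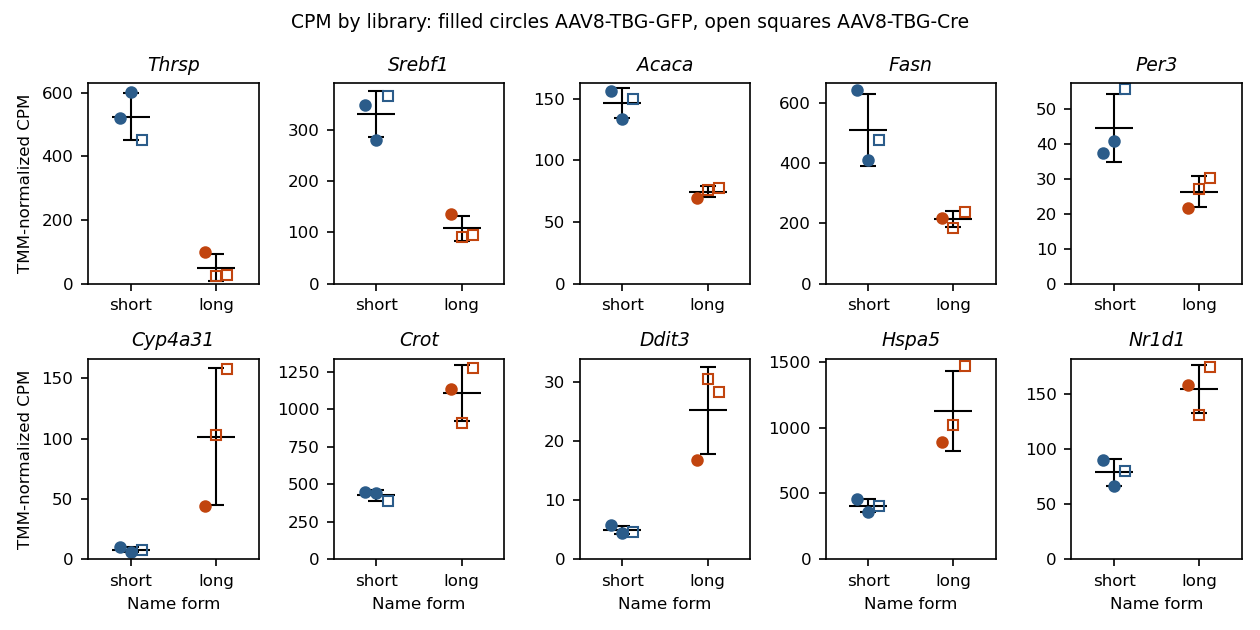
TMM-normalized CPM of 10 called genes in each library (blue short-named, orange long-named, filled circles AAV8-TBG-GFP, open squares AAV8-TBG-Cre) with the mean and SD of each name form (n = 3), each axis from 0. Thrsp, Srebf1, Acaca, Fasn and Per3 are lower in the long-named libraries and Cyp4a31, Crot, Ddit3, Hspa5 and Nr1d1 higher, with no overlap of the points.

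Of 21 listed genes of the unfolded protein and integrated stress response, 4 rose (Ddit3, Dnajb9, Hspa5 and Manf), 1 fell (Chac1), and the median was 0.56. By the unadjusted rule 10 were higher and 2 lower. Of all genes tested, 0.724% were called higher and 0.659% lower, with 7.78% and 7.83% by the unadjusted rule. Without AAV8-TBG-Cre replicate 1 the median was 0.36. Ddit3, which encodes the stress-induced transcription factor CHOP, was at 5.75, 4.43 and 4.61 CPM in the short-named libraries and at 16.8, 30.5 and 28.4 CPM in the long-named ones (2.18 ± 0.23, adjusted p = 0.0191). Hspa5, the main chaperone of the ER (BiP), was at 459, 358 and 402 CPM against 888, 1023 and 1469 CPM (1.38 ± 0.23, adjusted p = 0.0439). Manf, a secreted ER protein, was at 54.5, 36.1 and 50.5 CPM against 103, 128 and 196 CPM, and Dnajb9, an ER co-chaperone, at 46.7, 53.9 and 60.9 CPM against 107, 98.1 and 141 CPM. Syvn1, the ubiquitin ligase of ER-associated degradation, which was not on the list, was at 89.8, 93.3 and 89.4 CPM against 210, 247 and 395 CPM (1.52 ± 0.23, adjusted p = 0.0349). Chac1, which degrades glutathione and is a known target of the ATF4 and CHOP arm, went the other way, at 8.95, 10.5 and 11 CPM against 3.12, 4.19 and 3.55 CPM (-1.56 ± 0.17, adjusted p = 0.0193). As with other called genes, the calls of the ER genes depended on single libraries. Hspa5 stayed called in 0 and Manf, Dnajb9 and Syvn1 in 1 of the 6 fits that left out a library.

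Promoters of the called genes were searched for short motifs in RefSeq sequence of GRCm38.p6, from 250 bases before to 50 after 1 transcript start per gene, on both strands. That start is the one given with the sequences, and it was the outer end of the annotated gene in 53.8% of them. Of the 13812 genes tested 10969 had such a sequence, as did 72 of the 100 higher and 71 of the 91 lower genes. The ER stress element (CCAAT, then 9 bases, then CCACG) was added to the search after the results were seen, because it is known from promoters of ER chaperones. It was in 21 of the 10969 promoters (0.191%), in 3 of the 72 (4.17%) and in 1 of the 71 (1.41%), and in 5 of the 19 promoters of listed stress response genes (26.3%). The sites are printed on the strand of the gene with 15 bases on either side and the element, or its reverse complement in Calr, in capitals. They are shown because the first 3 belong to genes that were higher in the long-named libraries, Calr to a listed gene that did not pass, and Acacb to the 1 called gene with the element that was lower.
Hspa5, chr2:34772010-34772058, plus strand: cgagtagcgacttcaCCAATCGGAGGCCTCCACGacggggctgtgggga
Syvn1, chr19:6046517-6046565, plus strand: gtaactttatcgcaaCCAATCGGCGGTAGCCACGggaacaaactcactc
Alg12, chr15:88819505-88819553, minus strand: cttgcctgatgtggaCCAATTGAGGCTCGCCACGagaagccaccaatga
Calr, chr8:84847060-84847108, minus strand: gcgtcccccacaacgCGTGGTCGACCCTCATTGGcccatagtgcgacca
Acacb, chr5:114165416-114165464, plus strand: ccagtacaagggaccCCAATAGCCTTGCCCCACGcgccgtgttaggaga

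Counted from these starts, the element begins 65 bases before that of Hspa5, 44 before that of Syvn1, 220 before that of Alg12, 162 before that of Calr and 87 before that of Acacb. The start of Acacb used here is an internal one, 19197 bases inside the annotated gene, whereas those of the other 4 are the outer ends of their genes. The element of Alg12, a mannosyltransferase of N-glycan assembly in the ER, is the same site as that of Creld2, an ER protein whose start lies 328 bases away on the other strand. Alg12 was at 6.15, 6.44 and 6.23 CPM in the short-named libraries and at 12.2, 11.5 and 16.8 CPM in the long-named ones (1.07 ± 0.19, adjusted p = 0.0492). It stayed called in 0 of the 6 fits that left out a library. Creld2 was at 36.9, 22.0 and 18.8 CPM against 68.0, 75.9 and 133 CPM and did not pass (1.83 ± 0.38, adjusted p = 0.0745). Other carriers of the element did not pass, among them Calr (0.39, adjusted p = 0.416) and Hsp90b1 (0.49, adjusted p = 0.387). The differences of these other carriers had both signs and ran from -1.08 to 1.26. A match is a description of the letters and not evidence of binding.

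The heat shock list, which holds cytosolic chaperones and a few of mitochondria and the ER, had no call. Of its 15 genes 7 were higher and none lower by the unadjusted rule, which held 7.78% higher and 7.83% lower over all genes tested. The median of the list was 0.68, and none of its genes passed an adjusted p under 0.05. Leaving out replicate 1 of AAV8-TBG-Cre lowered that median to 0.14, and leaving out replicate 3 of AAV8-TBG-GFP raised it to 0.995. Hspa1b, an inducible HSP70, was at 27.7, 25.3 and 20.34 CPM in the short-named libraries and at 93.6, 314 and 814 CPM in the long-named ones (3.30 ± 0.78, adjusted p = 0.0994). Its paralog Hspa1a was at 3.31, 2.83 and 1.09 CPM against 5.21, 30.1 and 49.8 CPM (adjusted p = 0.197), and reads of the 2 near-identical genes may be split between them. Dnajb1 (1.44), Bag3 (1.38) and Hsph1 (1.41) had adjusted p-values of 0.0912, 0.0995 and 0.164. For each of these 5 genes the 3 long-named libraries were above the short-named ones, and AAV8-TBG-Cre replicate 3 was the highest.

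Of 20 core clock genes reported here, 2 passed, beside 1.38% of all genes tested. Nr1d1 was higher and Per3 lower in the long-named libraries, and these 2 calls are not read as a result about the list. Nr1d1, which encodes the repressor REV-ERB alpha, was at 90.6, 66.4 and 80.1 CPM in the short-named libraries and at 159, 131 and 175 CPM in the long-named ones (0.98 ± 0.17, adjusted p = 0.0470). Per3, a Period gene, was at 37.3, 40.7 and 55.7 CPM against 21.6, 27.2 and 30.2 CPM (-0.91 ± 0.09, adjusted p = 0.0191). Nr1d1 stayed called in 0 and Per3 in 3 of the 6 fits that left out a library. The activators had positive differences that did not pass, which were 2.10 for Npas2, 1.28 for Arntl and 0.49 for Clock (adjusted p between 0.0788 and 0.226). Npas2 was at 0.203, 0.309 and 0.428 CPM against 0.989, 2.80 and 1.30 CPM. Differences of Cry1 (-0.82), Nfil3 (-0.59), Tef (-0.52), Cry2 (-0.43) and Nr1d2 (-0.29) were negative and did not pass (adjusted p between 0.131 and 0.263). The other 10 members (Ciart, Rora, Per1, Bhlhe41, Csnk1e, Dbp, Csnk1d, Hlf, Per2 and Bhlhe40) lay between -0.40 and 0.68 with adjusted p-values of 0.447 or more. The median of the list was -0.06, and between -0.28 and 0.03 across the alternatives. Among 18 genes known as clock output, 2 rose and 3 fell, beside 0.724% and 0.659% of all genes tested. The increases were in Insig2 and in Avpr1a, a vasopressin receptor (0.82), and the decreases in Upp2, in Por, the electron donor of cytochromes P450, at 825, 858 and 843 CPM against 453, 531 and 463 CPM (-0.83 ± 0.14, adjusted p = 0.0452), and in Coq10b, a coenzyme Q-binding protein (-0.99, adjusted p = 0.0339).

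**Figure D4:**
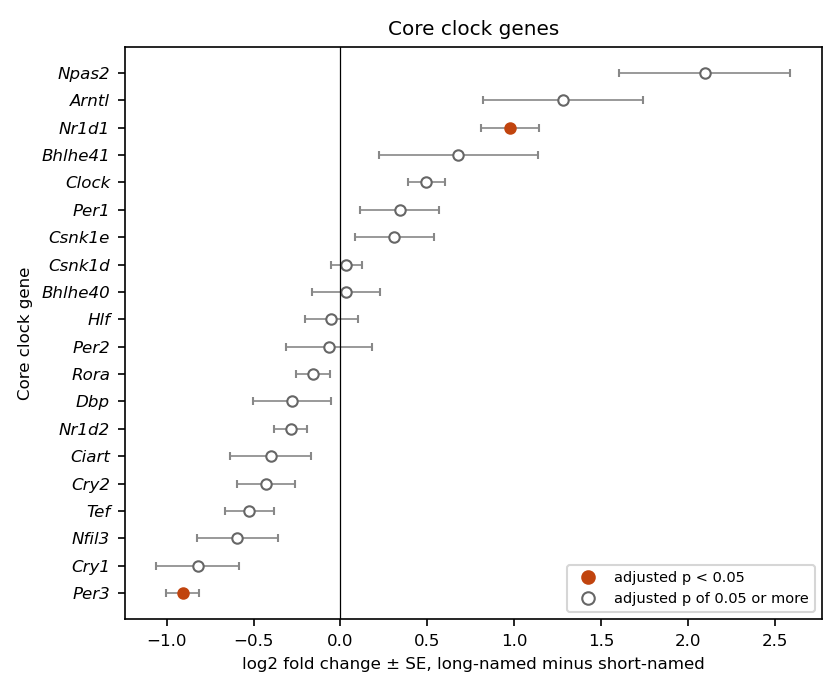
Log2 difference between long-named and short-named libraries, adjusted for vector, with its SE for 20 core clock genes, filled where the adjusted p is under 0.05. Per3 (-0.91) is the lowest and passed, and Npas2 (2.10), Arntl (1.28) and Nr1d1 (0.98) are the highest, of which Nr1d1 passed.

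The E-box of clock activators (CACGTG) was in 12.5% of the promoters of higher genes and 11.3% of those of lower genes, against 11.5% of all promoters. The D-box (TTATGTAA or TTATGCAA), bound by the output factors of the clock, was in 1.39%, 4.23% and 1.52%, respectively. The cAMP response element (TGACGTCA) was in 4.17%, 1.41% and 3.37%, the sterol response element (TCACNCCAC) in 1.39%, 1.41% and 1.48%, and the heat shock element, here GAANNTTCNNGAA or its shifted form TTCNNGAANNTTC, in 0%, 1.41% and 0.556%. A PPAR response element, also added after the results were seen, was in 8 of the 10969 promoters (0.0729%). It was in none of the promoters of called genes, and it is too rare for that absence to be read. The shares among called genes rest on 1 to 9 promoters each where they are above 0. The promoter of Per3 held a pair of D-boxes, and it is shown with both in capitals because Per3 had the smallest p of the clock genes. The window begins 15 bases before the first of them, which begins 205 bases before the transcript start used, itself 42 bases inside the annotated end of the gene.
Per3, chr4:151044801-151044885, minus strand: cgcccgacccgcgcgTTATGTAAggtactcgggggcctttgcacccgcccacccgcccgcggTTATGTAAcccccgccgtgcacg

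Single genes passed in several other lists, beside 1.38% of all genes tested. A single call is not read as a result about its list. Fkbp5, a glucocorticoid-induced co-chaperone, was at 102, 111 and 131 CPM in the short-named libraries and at 60.8, 41.6 and 56.6 CPM in the long-named ones (-1.12 ± 0.17, adjusted p = 0.0383), and was the 1 call among 12 glucocorticoid targets. Serpina6, the corticosteroid-binding globulin of plasma, was at 506, 444 and 471 CPM against 235, 261 and 203 CPM (-1.02 ± 0.15, adjusted p = 0.0339). Srxn1, sulfiredoxin, was the 1 called gene of 12 NRF2 targets (0.77 ± 0.12, adjusted p = 0.0348), whereas Gclc did not pass (0.67, adjusted p = 0.0843). Rsad2, an antiviral protein, was the 1 called gene of 24 interferon response genes, at 12.0, 17.2 and 12.5 CPM against 33.1, 23.3 and 20.1 CPM. Ifit1 overlapped between the sets and did not pass (0.93, adjusted p = 0.126). Rbm3, an RNA-binding protein induced by cold, rose by 0.87 ± 0.14 (adjusted p = 0.0447). The other of the 2 listed cold-induced genes had a negative difference (-0.26). Rbm15b, a subunit of the m6A writer complex, rose from 7.63, 7.37 and 7.79 CPM to 13.3, 12.3 and 15.3 CPM (0.83 ± 0.14, adjusted p = 0.0454) and was the 1 call among 16 genes of the m6A machinery. Tk1, the cytosolic thymidine kinase, fell (-1.37 ± 0.16, adjusted p = 0.0194), whereas Rrm2, a ribonucleotide reductase subunit, did not pass (-1.33, adjusted p = 0.0625). Pdk1, a pyruvate dehydrogenase kinase, fell (-0.70 ± 0.09, adjusted p = 0.0281). Hamp2, a hepcidin paralog, was called lower (-1.31 ± 0.18, adjusted p = 0.0309), but its libraries overlapped, at 25.7, 17.7 and 117 CPM against 10.5, 45.0 and 36.5 CPM. Cela1, a pancreatic elastase gene, was called lower with overlap as well (-1.05 ± 0.17, adjusted p = 0.0447). Of the genes in this paragraph, Srxn1, Rsad2, Rbm15b, Pdk1, Hamp2 and Cela1 stayed called in 0 of the 6 fits that left out a library. Fkbp5, Serpina6 and Rbm3 stayed called in 1. Cyp2b10, the target of the receptor CAR, was at 4.12, 5.20 and 1.62 CPM against 0.312, 0.534 and 0.480 CPM and did not pass (-2.62 ± 0.52, adjusted p = 0.0674).

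Markers of the cell types of liver held no call. The 15 endothelial markers all had negative differences, with a median of -0.54, and 9 were lower by the unadjusted rule. By that rule 7.83% of all genes tested were lower and 7.78% higher. Other lists held 1 sign as well, such as 25 negative genes of the respiratory chain and 10 positive cholangiocyte markers. The endothelial median was -0.12 without AAV8-TBG-GFP replicate 3 and -0.84 without AAV8-TBG-Cre replicate 1. The summed level of the endothelial markers was 393.0 to 525.5 CPM in the short-named libraries and 301.3 to 374.5 CPM in the long-named ones, without overlap. Of single genes tested, 21.3% did not overlap. Pecam1 was at 23.2, 21.8 and 19.0 CPM against 12.7, 14.9 and 12.6 CPM (-0.64 ± 0.13, adjusted p = 0.0727), and Oit3, Ptprb and Cdh5 differed by -0.60, -0.62 and -0.57 (adjusted p between 0.0958 and 0.107). None of the 15 was absent. In bulk tissue, fewer cells of a type and less RNA per cell cannot be told apart. The called gene Flt4 was lower too, by a log2 ratio of -0.99 within AAV8-TBG-GFP and -1.20 within AAV8-TBG-Cre. Pecam1, Oit3, Ptprb and Cdh5 lay between -0.90 and -0.80 and between -0.46 and -0.34, respectively. Whether the difference of Flt4 shares a source with that of the markers was not tested. Of 22 markers of Kupffer cells and macrophages 5 were higher and 3 lower by the unadjusted rule, with a median of 0.13 (-0.14 without AAV8-TBG-Cre replicate 1) and summed levels of 601.5 to 888.9 CPM against 496.2 to 1146 CPM. Differences in this list ran from -0.71 to 1.94, with 15 positive and 7 negative. Of its members 1 did not overlap between the name forms (4.55%, beside 21.3% of all genes tested). The 2 markers given next are both positive and do not stand for the list. Gpnmb, a gene of lipid-associated macrophages, was at 5.04, 3.35 and 5.56 CPM against 8.54, 54.7 and 21.4 CPM (1.94 ± 0.54, adjusted p = 0.140), and Trem2 overlapped (1.19, adjusted p = 0.124). Hepatocyte markers had a median of -0.02. Of 14 pericentral genes 7 were higher and none lower by the unadjusted rule (7.78% and 7.83% of all genes tested), with a median of 0.34. Of 14 periportal genes 1 was higher and 5 were lower by that rule, with a median of -0.40. Neither list held a call, and without AAV8-TBG-Cre replicate 1 the medians were 0.12 and -0.09. For example, Tbx3 (0.95, adjusted p = 0.106) and Lgr5 (0.66, adjusted p = 0.122) are pericentral, and Ass1 (-0.86, adjusted p = 0.108) and Gls2 (-0.89, adjusted p = 0.126) are periportal. Of the 46 lists, 28 held no called member, and 157 of the 191 called genes were on no list.

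**Figure D5:**
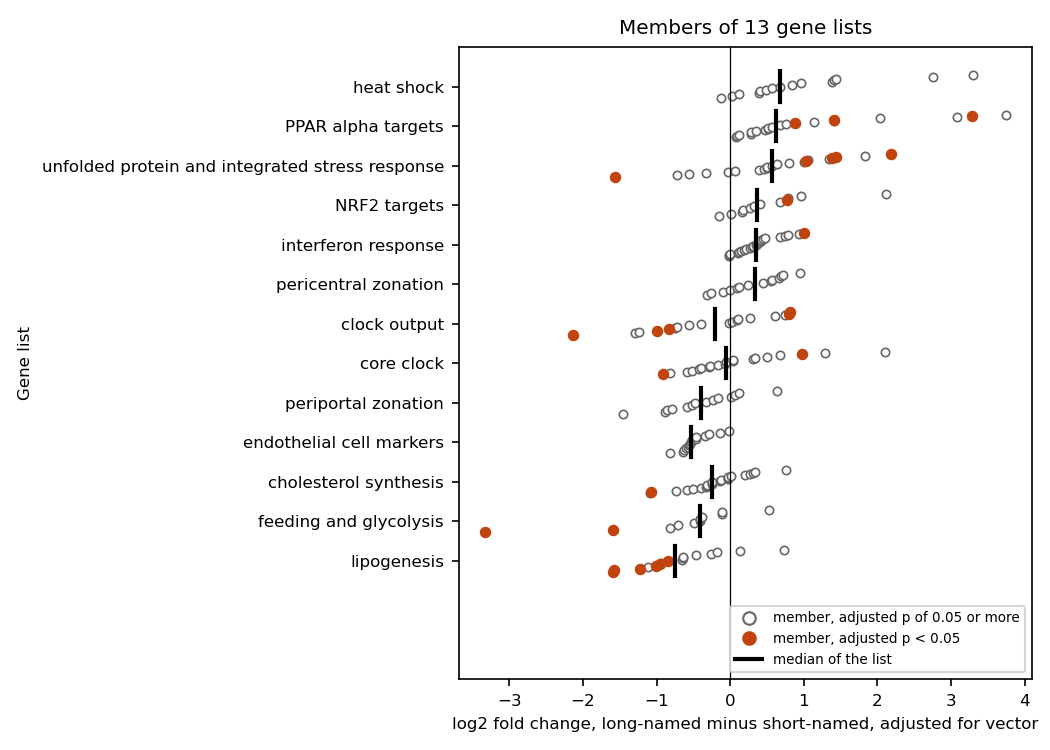
Log2 difference between long-named and short-named libraries, adjusted for vector, for the tested members of 13 gene lists (1 circle per gene, filled orange where the adjusted p is under 0.05, with a black bar at the median). The medians run from -0.75 for lipogenesis to 0.68 for heat shock, and filled circles occur on both sides of 0 in the lists of the clock, its output and the unfolded protein response.

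Transcript length moved little with the differences. Over 5 groups of genes of rising transcript length, the median log2 difference ran from -0.0164 in the shortest to 0.0297 in the longest, and the number of called genes was 22, 35, 55, 44 and 35.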

How the data were processed

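Bulk RNA-seq of 6 livers was grouped by vector and by the form of the library name. For each transcript, the authors deposited an unnormalized expected count, an estimate that need not be whole, and FPKM, also given per gene, scaled by length and mapped fragments. The submitters' processing notes name HISAT2, Bowtie2, RSEM and mm10, while the methods name STAR, HTSeq and DESeq2, in both cases without versions. The kit text gives oligo dT selection or rRNA depletion, without saying which. Expected counts were summed per NCBI gene ID and rounded. A row without gene ID (0.000208% of counts) was left out. Genes were tested with edgeR 4.0.16 in R 4.3.3 (filterByExpr, TMM, quasi-likelihood) with vector and name form as factors and 3 residual degrees of freedom, with Benjamini-Hochberg adjustment. SEs derive from the quasi-F statistic. Libraries differed beyond sampling noise, with a chi-square per gene of 25.1 for the closest pair. The p-values measure the spread between these mice, and CPM near 1 carry large counting error. Alternatives were DESeq2 1.42.0 and limma 3.58.1 on log2(FPKM + 1), other normalizations and filters, and fits without each library. The steps were tested on simulated counts.

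Named genes were the 10 largest called increases and decreases without overlap (mean log2 CPM of at least 1), the 5 smallest p-values in each direction, up to 4 members per list by smallest p, the core clock and Mettl14. This rule names 212 genes. The text gives 94 of them, and the list members among these were picked with their values known. Crat, Crot, Gpd1, Serpina6, Acly, Fasn, Manf, Alg12, Creld2, Cyp4a10, Cyp4a14, Cyp4a32, Hspa1a, Hsp90b1, Calr, Txnip, Diaph2, Saa1, Saa2 and Avpr1a fall outside this rule and were chosen once their values were known. The comparison and the gene lists were chosen with earlier results of these data known. A gene of the core clock list is not reported here, and the values of that list leave it out.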

Additional observations from a re-analysis of the deposited data

Results flagged for a closer look

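Saa2, a serum amyloid A gene of the acute phase, was flagged because its difference with name form differed between the vectors (interaction on the log2 scale, AAV8-TBG-Cre minus AAV8-TBG-GFP, -3.89 ± 0.26 SE, edgeR adjusted p = 0.0210). It was at 73.4 and 89.9 CPM in the short-named AAV8-TBG-GFP libraries and at 821 CPM in the long-named one, AAV8-TBG-GFP replicate 3. In AAV8-TBG-Cre it was at 78.2 CPM in the short-named library and at 56.0 and 51.7 CPM in the long-named ones. The interaction rested on that 1 library. Saa1, which shares reads with Saa2, had the same pattern, at 1218 CPM in AAV8-TBG-GFP replicate 3 and between 99.6 and 195 CPM in the other 5 libraries (-3.58 ± 0.32, adjusted p = 0.0643).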

How the results depend on the processing

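The count of 191 genes called for name form (52.4% of them higher) became 292 with no filter on low counts, 690 with DESeq2, 99 with limma on log2(FPKM + 1), 0 with the same without a filter (2101 genes had an unadjusted p under 0.05 there) and 33 without the vector covariate. It was between 148 and 193 with RLE or upper quartile normalization (where 45.9% were higher), a minimum of 10 counts, limma on log2(FPKM + 0.1) and the 10 most abundant genes left out. Without each library in turn it ran from 4 to 70. The 205 genes called for vector became 125 with upper quartile normalization and 447 with no filter, and ran from 22 to 209 without each library. The 1 interaction call became 4 with no filter. With the replicate block, 1 gene was called for name form and 58 for vector. The labels give same-numbered libraries of the 2 vectors a number in common and no other link. Their deviations from the vector means correlated at 0.005, -0.246 and 0.193. These deviations still hold the name-form difference, so they cannot show whether the numbers mark pairs. None of the 59 called genes named in the text reversed. Genes that changed sign were not called. Per2 was at 0.095 without the vector covariate, and in the replicate block Bhlhe40 was at -0.18, Bhlhe41 at -0.65, Csnk1d at -0.031 and Mettl14 at 0.032. Without each library in turn, Per2 ran from -0.48 to 0.33, Bhlhe40 from -0.36 to 0.42, Bhlhe41 from -0.043 to 1.35, Hlf from -0.28 to 0.17, Csnk1e from -0.12 to 0.70, Mettl14 from -0.15 to 0.040, Saa2 from -0.55 to 3.33 and Saa1 from -0.70 to 2.86.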

Other observations

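Diaph2, a formin on the X chromosome, and Susd4, a regulator of complement, were low in 1 library. Diaph2 was at 3.23 CPM in AAV8-TBG-Cre replicate 1, the short-named library of that vector, and between 18.5 and 24.4 CPM in the other 5. Susd4 was at 3.66 CPM there and between 18.4 and 26.0 CPM in the others. Neither difference with name form passed (1.32 ± 0.57, adjusted p = 0.307, and 1.41 ± 0.51, adjusted p = 0.230, edgeR). Diaph2 was chosen after its values were seen.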
